A study of Mus musculus with 6 samples.

Results

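The activator protein 1 (AP-1) factors described here are the 9 genes Fos, Fosb, Fosl2, Jun, Junb, Jund, Atf3, Batf and Maff. They were chosen by gene symbol out of 27179 genes with deposited read counts and 12179 genes in the deposited normalized table, and each of the 9 is in both. The rule uses no measured value, but it was set with earlier results of these data known. RNA-Seq was performed on long-term hematopoietic stem cells (LT-HSCs), sorted as CD150+CD48-LSK cells from the bone marrow of C57BL/6 mice at 8 weeks of age. The WT group and the Foxm1 HET group, labelled as heterozygous for the cell cycle factor Foxm1, had 3 libraries each. No Cre driver appears in the titles of the Foxm1 HET libraries, which name only the floxed allele, and the study describes both a Tie2-Cre deletion, which acts in endothelial and hematopoietic cells, and an inducible Mx1-Cre deletion without naming the driver of the sequenced mice. The comparison asks how the RNA of AP-1 factors differs when 1 copy of Foxm1 is lost.

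AP-1 factors are basic leucine zipper (bZIP) proteins that bind DNA as pairs. A Fos protein needs a Jun partner, whereas Jun proteins can also pair with each other, with Atf3 or with Batf. Most of these genes are immediate-early genes, which are transcribed within minutes of growth factor, cytokine or stress signals through MAP kinases, and cell dissociation and sorting are known to switch them on.

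Among the 9 genes, 8 passed the filter on low counts. None of these differed between genotypes at an adjusted p under 0.05, beside 0.329% of all genes tested. Atf3, a stress-induced bZIP factor that often represses its targets, was the single member whose genotypes did not overlap. It lay lower in each Foxm1 HET library than in each WT library. Of all genes tested, 4.55% lay lower and 4.12% higher in Foxm1 HET without overlap. A count of 1 among 8 members does not set them apart from these shares. Fos, Fosb and Jun were abundant in every library of both genotypes and never ranked below 640 by level per length. Fosl2, Junb, Jund and Maff varied more between libraries of the same genotype than between genotypes, and Batf had reads above single digits in 1 library only.

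Libraries held between 14573002 and 25798509 counted reads, and between 4467 and 9894 genes reached 10 reads. Foxm1 itself was lower in each Foxm1 HET library (659, 5 and 742 reads in replicates 1, 2 and 3) than in each WT library (1182, 2615 and 2942 reads). The spread between libraries was wide, with a biological coefficient of variation of 1.66 over all genes. Foxm1 HET replicate 2 was the smallest library and its TMM scaling factor, which corrects for the makeup of the RNA, was 0.453, against 0.757 to 1.67 in the others. Of 16 LT-HSC marker genes, none was at 0 in all libraries, and their summed level ran from 1526 to 4594 TPM (transcripts scaled for length and library total) in WT and from 2765 to 4003 TPM in Foxm1 HET. Granulocyte markers were also present, at 16550 to 35740 TPM in WT and 3580 to 18760 TPM in Foxm1 HET.

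The proximal promoters of the members that carry the main results are shown first, namely Fos, Fosb and Jun for their high levels and Atf3 for its separation between genotypes. The bases are the 120 before the RefSeq transcription start on GRCm38.p6, 5′ to 3′ on the gene's strand, at chr12:85473770-85473889 (plus strand) for Fos, chr7:19310046-19310165 (minus strand) for Fosb, chr4:95052223-95052342 (minus strand) for Jun and chr1:191183334-191183453 (minus strand) for Atf3. Capitals mark TGACG on either strand, the first letters of the cyclic AMP response element (CRE) to which AP-1 and ATF pairs can bind.
Fos: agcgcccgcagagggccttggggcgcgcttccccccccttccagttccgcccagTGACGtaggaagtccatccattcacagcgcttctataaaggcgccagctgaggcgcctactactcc
Fosb: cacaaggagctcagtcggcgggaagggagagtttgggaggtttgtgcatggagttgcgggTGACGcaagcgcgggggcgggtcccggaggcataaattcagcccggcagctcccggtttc
Jun: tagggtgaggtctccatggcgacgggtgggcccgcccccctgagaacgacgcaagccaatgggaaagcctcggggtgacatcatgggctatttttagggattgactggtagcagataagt
Atf3: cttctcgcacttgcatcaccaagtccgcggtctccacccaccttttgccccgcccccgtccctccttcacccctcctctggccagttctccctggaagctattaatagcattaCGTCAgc

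These letters were found at positions -66 to -62 of Fos, -60 to -56 of Fosb and -7 to -3 of Atf3, counted back from the start, and none was found in Jun. Another copy in Fos, at -129 to -125, lies outside the stretch shown, and Junb, Batf and Maff held the letters too. All 9 members had a RefSeq promoter entry (250 bases before to 50 after the start), 11 entries in all, and 20.8% of 32851 mouse promoters of that length hold TGACG. This short motif was added after the promoters had been read and overlaps the full CRE. The full CRE (TGACGTCA, in 1.79% of promoters) was found in 1 of the Maff entries, at -29 to -22. The AP-1 site (TGANTCA, 7.81%) and the CArG box of serum response factor (1.63%) were found in no member. These exact searches do not count close variants, such as the letters tgacatca in the Jun stretch shown. The core letters of forkhead sites (TAAACA, 13.4%), the family to which Foxm1 belongs, were found in Junb alone, at -135 to -130 on the opposite strand. The cell cycle gene homology region (CHR, TTTGAA, 17.9%), through which Foxm1 is recruited to mitotic genes, was found in Batf alone, at -210 to -205 on the opposite strand. All motifs were searched on both strands, and a match or its absence describes only the letters in these windows.

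Fos encodes the founding member of the family, a protein that pairs with Jun to activate transcription. Its 4-exon gene lies on chromosome 12 of GRCm38 from 85473901 to 85477269 on the plus strand in the count table, a start slightly downstream of the RefSeq start used for the promoter above. WT replicates 1, 2 and 3 had 10488, 22677 and 9743 reads, and Foxm1 HET replicates 1, 2 and 3 had 19942, 2485 and 17350. On the log2 CPM scale (reads scaled to library size after TMM) the WT libraries lay at 8.89, 9.97 and 9.25 and the Foxm1 HET libraries at 9.03, 8.58 and 8.70. The genotypes overlapped, because WT replicate 1 lay below the highest Foxm1 HET library. The log2 fold change, Foxm1 HET minus WT throughout, was -0.66 (SE 1.45, adjusted p = 0.998, edgeR's quasi-likelihood test). The median over all 8195 genes tested was -0.26 with this scaling and 0.10 when libraries were scaled by their totals alone, and the members' values should be read against that shift.

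Fosb encodes a Fos relative that is known for a long-lived short form in neurons. It lies on chromosome 7 from 19302696 to 19310045 on the minus strand. Its reads numbered 31815, 7856 and 9413 across WT replicates and 16327, 11090 and 15402 across Foxm1 HET replicates. On the log2 CPM scale the WT libraries lay at 10.49, 8.44 and 9.20 and the Foxm1 HET libraries at 8.74, 10.74 and 8.52, so each genotype had 1 high library and the groups overlapped. Its log2 fold change was 0.08 (SE 1.38, adjusted p = 0.998, edgeR).

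Fosl2 encodes Fra-2, a Fos relative without the strong activation domain of Fos. It lies on chromosome 5 from 32136472 to 32157840 on the plus strand. Its reads numbered 1150, 20693 and 31301 across WT replicates and 1614, 7594 and 2432 across Foxm1 HET replicates. Both genotypes held high and low libraries. WT replicate 1 and Foxm1 HET replicates 1 and 3 lay between 5.41 and 5.86 log2 CPM, and WT replicates 2 and 3 and Foxm1 HET replicate 2 lay between 9.84 and 10.93. The range within WT was 37.6-fold and within Foxm1 HET 27.7-fold. Between genotypes it differed by -1.20 on the log2 scale (SE 1.42, adjusted p = 0.998, edgeR). Without Foxm1 HET replicate 2 it was -4.22 (SE 1.41, unadjusted p = 0.00612, adjusted p = 0.780, edgeR), and without WT replicate 3 it was -0.21.

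Jun encodes c-Jun, the main partner of Fos proteins and the substrate of the c-Jun N-terminal kinases. It is a single-exon gene on chromosome 4 from 95049036 to 95052222 on the minus strand. Its reads numbered 18966, 15726 and 9289 across WT replicates and 13276, 7699 and 22731 across Foxm1 HET replicates. On the log2 CPM scale the WT libraries lay at 9.74, 9.44 and 9.18 and the Foxm1 HET libraries at 8.45, 10.22 and 9.09, and the WT libraries lay inside the range of the Foxm1 HET libraries. Between genotypes the log2 fold change was -0.04 (SE 1.40, adjusted p = 0.998, edgeR). Its sign changed with the scaling, to 0.59 with RLE scaling.

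Junb, which restrains stem cell proliferation in mice and often opposes c-Jun, is a single-exon gene on chromosome 8 from 84976909 to 84978748 on the minus strand. Its reads numbered 337, 649 and 587 across WT replicates and 485, 1292 and 49 across Foxm1 HET replicates. The WT libraries were within 2.41-fold of each other in CPM, whereas Foxm1 HET replicate 2 exceeded replicate 3 by 170-fold, so Foxm1 HET held both the highest and the lowest library. The log2 fold change was 1.40 (SE 2.32, adjusted p = 0.998, edgeR), and without Foxm1 HET replicate 2 it was -1.88 and the genotypes no longer overlapped, with Junb lower in the 2 remaining Foxm1 HET libraries. The mean of log2 CPM, which weights libraries equally, went the other way from the fitted value, at 4.66 ± 0.65 over WT libraries (SD, n = 3) and 3.88 ± 3.66 over Foxm1 HET libraries (SD, n = 3). DESeq2 gave no p for Junb.

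Jund, the Jun gene usually expressed steadily in resting cells, is a single-exon gene on chromosome 8 from 70697739 to 70700616 on the plus strand. Its reads numbered 551, 968 and 74 across WT replicates and 1119, 181 and 130 across Foxm1 HET replicates. Each genotype held a library below 2.3 log2 CPM, at 2.24 in WT replicate 3 and 1.67 in Foxm1 HET replicate 3, and the other libraries lay between 4.64 and 5.42. Its log2 fold change was -0.26 (SE 2.68, adjusted p = 0.998, edgeR), equal to the median of all genes tested. Of the 50-base stretches in annotated Jund transcripts, 48.3% also lie in the opposite-strand transcript Gm11175, against 5.83% of Jun (Junos) and 5.76% of Junb (Prdx2). The use of strand in counting is not given in the sources used here, so reads of these partners cannot be told apart from reads of the Jun genes.

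Atf3 lies on chromosome 1 from 191170296 to 191183333 on the minus strand, with 4 exons. Its reads numbered 6104, 6228 and 4524 across WT replicates and 1436, 157 and 34 across Foxm1 HET replicates. In log2 CPM the WT libraries were at 8.11, 8.11 and 8.14 and the Foxm1 HET libraries at 5.24, 4.60 and -0.16. The WT libraries lay within 1.03-fold of each other with TMM scaling, all Foxm1 HET libraries lay below them, and the Foxm1 HET libraries differed from each other by up to 46.4-fold. The WT mean was 278 ± 4.07 CPM (SD, n = 3) and the Foxm1 HET mean 20.9 ± 18.7 CPM (SD, n = 3), a ratio of 13.3, and the lowest WT library exceeded the highest Foxm1 HET library 7.31-fold. The closeness of the WT libraries depended on the scaling, since they spanned 1.45-fold when scaled by totals alone and 1.79-fold in the normalized table.

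The log2 fold change of Atf3 was -3.73 (SE 1.97, unadjusted p = 0.0581, adjusted p = 0.854, edgeR's quasi-likelihood test), which ranked 556 of 8195 genes by p. The two-sided exact permutation test on log2 CPM gave p = 0.1, the smallest that 3 libraries against 3 allow. Genotypes did not overlap in either direction for 1 of the 8 members tested, which was lower in Foxm1 HET. The shares of all genes tested were 4.55% lower and 4.12% higher. An adjusted p under 0.05 was reached by 0 of 8 members and 0.329% of all genes, and an unadjusted p under 0.05 by 0 of 8 members and 6.03% of all genes (edgeR). By other tools, 1 member (Atf3) had an unadjusted p under 0.05 with DESeq2 (unadjusted p = 0.0333, adjusted p = 0.302) against 13.1% of the 6347 genes to which it gave a p. Limma on the normalized table gave Atf3 alone as well (log2 difference -4.27, unadjusted p = 0.0210, adjusted p = 0.930), against 4.73% of genes. Limma-voom gave both Atf3 (unadjusted p = 0.0210) and Fosl2 (unadjusted p = 0.0380), against 3.31% of genes, with an adjusted p of 0.9995 for each. Over the 14 alternatives the log2 fold change of Atf3 stayed between -5.21 and -3.11, its adjusted p was never under 0.302, and the genotypes did not overlap in any of them. Limma-voom and the replicate block reuse the log2 CPM of the main fit, so their overlap was fixed in advance. Fits with 1 library left out could bring an overlap only through refitted scaling. With 1 library left out, other members also lay lower in Foxm1 HET without overlap, namely Fos without WT replicate 1 or Foxm1 HET replicate 1, and Jun and Junb without Foxm1 HET replicate 2. Groups of fewer libraries separate more readily, and the share of all genes without overlap in those fits is not given here. No conclusion is drawn from these members.

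**Figure D1:**
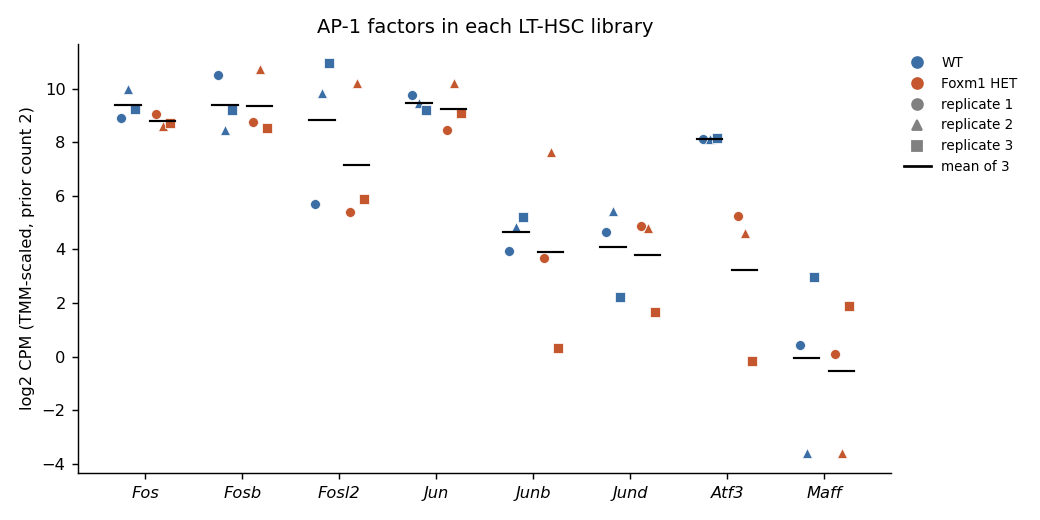
Log2 CPM (y axis) of the 8 tested AP-1 factors (x axis) in the WT and Foxm1 HET libraries, with the marker shape giving the replicate number and the bar the mean of 3 libraries. Atf3 is at 8.11 to 8.14 in WT and at -0.16 to 5.24 in Foxm1 HET, and the libraries of the other 7 genes overlap between genotypes.

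The level of Atf3 relative to other members within a library does not depend on how libraries are scaled. Per unit of length, Atf3 amounted to 51.9%, 63.8% and 78.5% of Jun in WT replicates 1, 2 and 3, and to 17.4%, 3.29% and 0.241% of Jun in Foxm1 HET replicates 1, 2 and 3. Against Fos it came to 61.6%, 29.1% and 49.2% for WT and to 7.62%, 6.69% and 0.207% for the Foxm1 HET libraries. Against Fosb the percentages were 36.6, 151 and 91.8 among WT libraries and 16.8, 2.70 and 0.422 among Foxm1 HET libraries. All 3 ratios were lower in every Foxm1 HET library than in every WT library. These ratios share the Atf3 reads and are not independent of its difference above.

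**Figure D2:**
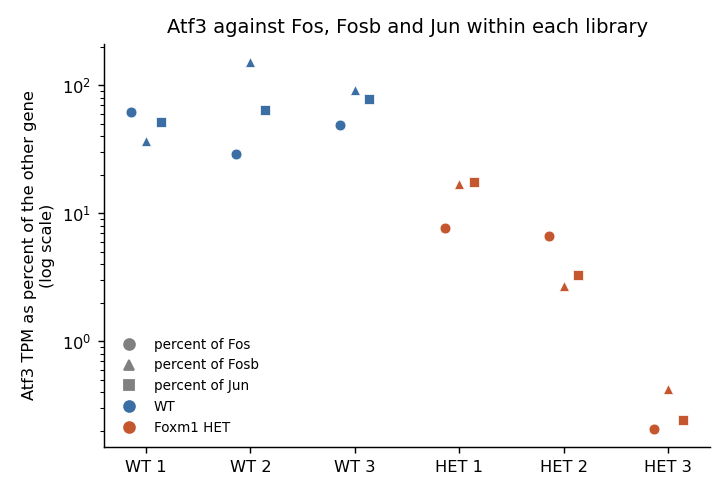
TPM of Atf3 as a percent of the TPM of Fos, Fosb or Jun in the same library (y axis, log scale) for each of the 6 libraries (x axis, HET standing for Foxm1 HET). The WT libraries lie between 29.1 and 151% and the Foxm1 HET libraries between 0.207 and 17.4%.

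Markers of other cell types were read beside this difference, and their part in it was not tested. Of the 7 marker lists, 6 had summed levels that overlapped between genotypes. Endothelial and stromal markers were at 1.19 to 38.7 TPM in WT and 50.1 to 80.0 TPM in Foxm1 HET, with Col1a1, Col1a2 and Lepr at 0 in all libraries among 8 listed. Lymphoid markers ran from 255 to 2959 TPM in WT and from 31.6 to 586 TPM in Foxm1 HET, with Cd3d, Cd3g, Cd79a, Ebf1, Ms4a1 and Trbc2 at 0 among 12. Monocyte and macrophage markers ran from 3862 to 7981 TPM and from 1708 to 8336 TPM, with C1qa and C1qb at 0. Erythroid markers ran from 643 to 1528 TPM and from 464 to 1308 TPM, with Hba-a1 at 0, and megakaryocyte markers from 12.7 to 112 TPM and from 35.3 to 76.7 TPM. In bulk samples, fewer cells that express a gene and less of its RNA per cell cannot be told apart.

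Batf, which pairs with Jun proteins and interferon regulatory factors in lymphocytes, lies on chromosome 12 from 85686720 to 85709087 on the plus strand. Its reads numbered 0, 0 and 1 across WT replicates and 4, 0 and 239 across Foxm1 HET replicates. Only Foxm1 HET replicate 3 exceeded 10 reads, and the gene did not pass the filter on low counts. A count of 0 allows up to 3 reads, which after TMM is 0.133 CPM in WT replicate 1, 0.130 CPM in WT replicate 2 and 0.454 CPM in Foxm1 HET replicate 2. Intervals of this kind cover counting error only.

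Maff, a small Maf protein without an activation domain of its own, lies on chromosome 15 from 79347678 to 79359076 on the plus strand. Its reads numbered 28, 0 and 124 across WT replicates and 38, 0 and 150 across Foxm1 HET replicates. The replicates labelled 2 had none in both genotypes and those labelled 3 had the most, so the groups overlapped throughout their range. Between genotypes it differed by -0.96 on the log2 scale (SE 2.88, adjusted p = 0.998, edgeR).

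**Figure D3:**
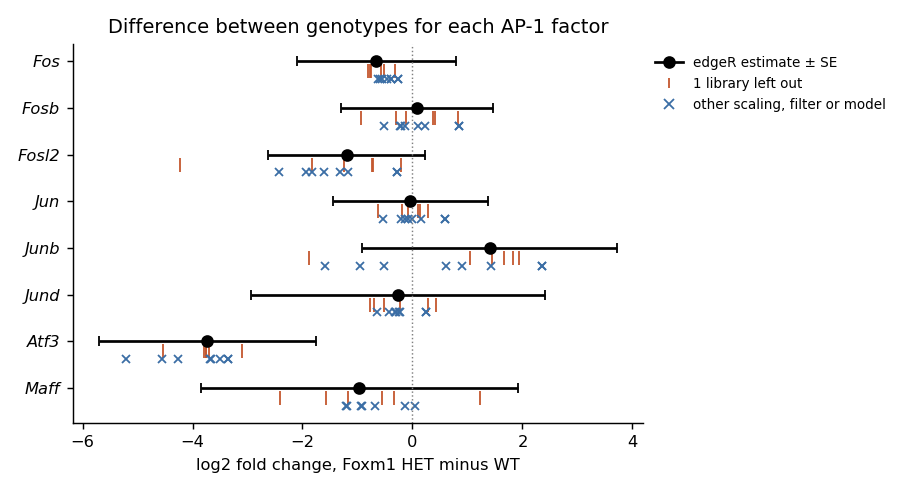
Log2 fold change, Foxm1 HET minus WT (x axis), of the 8 tested AP-1 factors (y axis), with the edgeR estimate and its SE (black), the estimates with 1 library left out (red ticks) and the estimates under other scalings, filters or models (blue crosses). Atf3 stays below 0 throughout, from -5.21 to -3.11, whereas estimates for Fosb, Jun, Junb, Jund and Maff fall on both sides of 0.

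Of the 8 tested members, 2 had positive and 6 had negative log2 fold changes, beside 3724 positive and 4471 negative among the 8195 genes tested. The members' median was -0.46, beside -0.26 over all genes tested. With RLE scaling it was -0.02, beside -0.13 over all genes tested. The estimates for Fos, Fosl2 and Atf3 were negative under all 14 alternatives, while those for Fosb, Jun, Junb, Jund and Maff took both signs. The SE exceeded the size of the estimate for every tested member except Atf3.

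Levels of different genes were compared as TPM, which divides by gene length. Averaged over the 6 libraries the order was Fos (634 TPM, range 179 to 1094), Jun (464, 272 to 660), Fosb (422, 210 to 914), Fosl2 (188, 21.3 to 498), Atf3 (157, 1.59 to 335), Junb (35.9, 2.46 to 106), Jund (17.1, 2.40 to 34.0), Batf (4.16, 0 to 24.5) and Maff (2.93, 0 to 7.71). The higher gene of each neighbouring pair down to Jund led in 3 or 4 of the 6 libraries. Within WT the order was the same down to Jund, and Atf3 (289 TPM) lay above Junb (28.4 TPM) in 3 of 3 libraries. Within Foxm1 HET, Junb (43.3 TPM) lay above Atf3 (24.4 TPM) by mean, and Atf3 was the higher in 1 of 3 libraries. Jund exceeded Batf in 5 of 6 libraries, whereas Batf exceeded Maff in 1 of 6 despite its higher mean. Fos ranked between 46 and 598 by TPM among all genes of a library, Jun between 74 and 398 and Fosb between 41 and 640.

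The Fos family together stood at 1479, 1660 and 1164 TPM across WT replicates and 1162, 817 and 1183 TPM across Foxm1 HET replicates. The groups overlapped narrowly in TPM, with means of 1434 ± 251 TPM (SD, n = 3) and 1054 ± 206 TPM (SD, n = 3). TPM carry no TMM factor, which was 0.453 in Foxm1 HET replicate 2 against 1.54 and 1.67 in replicates 1 and 3. How family totals compare between libraries and genotypes therefore depends on the scaling, and no difference is read from them. Its leading gene differed between libraries of both genotypes. Fos led in WT replicate 2 and Foxm1 HET replicates 1 and 3 with 64.9 to 67.4% of the family, Fosb led in WT replicate 1 (61.8%) and Foxm1 HET replicate 2 (54.2%), and Fosl2 led in WT replicate 3 (42.8%). The Jun family was led by Jun in every library, with 87.8 to 94.1% of the family in WT and 76.0 to 99.0% in Foxm1 HET. Its total averaged 519 ± 196 TPM over WT libraries (SD, n = 3) and 514 ± 138 TPM over Foxm1 HET libraries (SD, n = 3). Fos family RNA exceeded Jun family RNA in each of the 6 libraries, by 2.16-, 2.92- and 3.83-fold across WT replicates and by 2.93-, 1.70- and 1.77-fold across Foxm1 HET replicates.

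**Figure D4:**
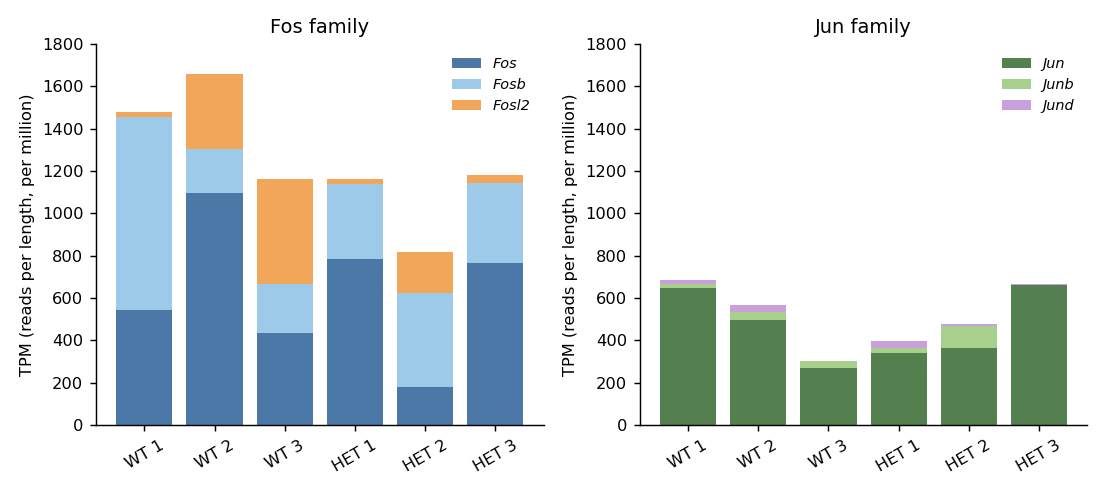
TPM (y axis) of the Fos family (left) and Jun family (right) in each library (x axis, HET standing for Foxm1 HET), stacked by gene. Fos family totals run from 817 to 1660 TPM with a changing leading gene, and Jun makes up at least 76.0% of its family in every library. The bars carry no TMM factor, so their heights across libraries depend on the scaling.

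The within-genotype SD of log2 CPM was 0.42 for Fos and 0.66 for Jun, and 0.305% and 1.40% of all genes tested had a smaller one. Spread falls with level, and of the 275 genes with a mean of at least 8 log2 CPM, 4.73% had a smaller SD than Fos and 15.3% a smaller SD than Jun. The median SD was 3.13 over all genes tested and 1.13 over these 275 genes. When libraries were scaled by totals alone, the SD of Fos was 0.96, beside a median of 0.95 over the same 275 genes, and that of Jun was 0.50. Fosl2 stood at the other end of the highly expressed members, with an SD of 2.70. Atf3 had an SD of 0.02 over WT libraries and 2.95 over Foxm1 HET libraries.

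**Figure D5:**
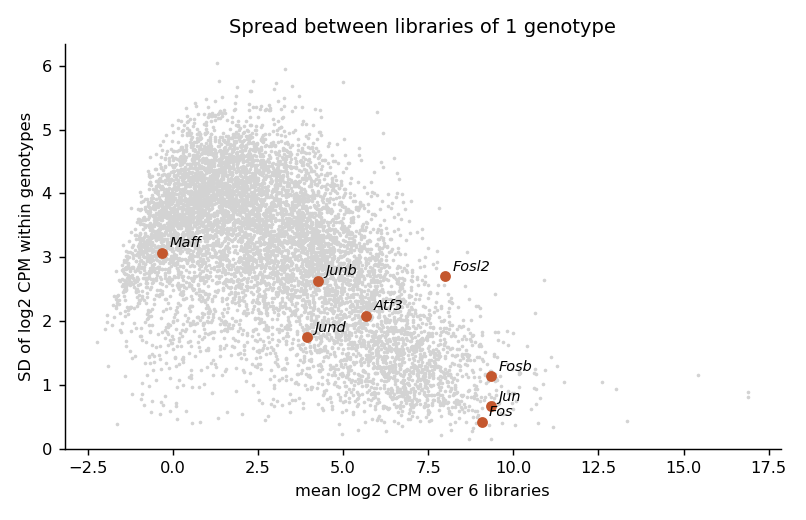
Within-genotype SD of log2 CPM (y axis) against mean log2 CPM over 6 libraries (x axis) for all 8195 genes tested (grey) and the tested AP-1 factors (red). Fos is at 0.42, Jun at 0.66 and Fosl2 at 2.70, beside a median of 1.13 over the 275 genes of at least 8 log2 CPM.

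The members' mean pattern over the 6 libraries, as log2 CPM centred per gene, stood at 0.32, 0.39 and 0.97 across WT replicates and at -0.48, 0.48 and -1.68 across Foxm1 HET replicates. The genes nearest to it among those with a mean of at least 10 CPM were Lars2, Anp32b, Cd97, Dock8 and Klf6, at root mean square distances of 0.31, 0.33, 0.34, 0.37 and 0.38 log2 units. Single members lay farther from their own mean pattern, between 0.79 (Jun) and 2.86 (Maff), and the median candidate gene lay at 3.19. The distance rewards genes that vary little as well as genes that vary alike. None of these 5 genes reached an adjusted p under 0.05 between genotypes (adjusted p = 0.998 for each, edgeR). Their log2 fold changes ran from -1.22 (Dock8) to -0.41 (Klf6), and a difference of that size is not excluded.

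The wider AP-1 network was read from 4 lists of genes. No listed gene had an adjusted p under 0.05 in edgeR, and the unadjusted counts below are to be read against the 6.03% of all genes. Of 26 other bZIP factors, 16 were tested, with 5 positive and 11 negative log2 fold changes (median -1.45) and 1 at an unadjusted p under 0.05. Fosl1 and Batf3, a Fos and a Batf relative, had no read in any library. The unadjusted p was lowest for Cebpg, a partner of C/EBP factors, with 660, 38 and 21 reads across WT replicates and 21857, 10 and 7695 across Foxm1 HET replicates. Foxm1 HET replicate 2 lay apart from the other 2 libraries of its genotype and the groups overlapped (log2 fold change 4.53, SE 2.10, unadjusted p = 0.0309, adjusted p = 0.745, edgeR). Ddit3, the stress-induced factor CHOP, had 149, 133 and 996 reads across WT replicates and 24, 0 and 18 across Foxm1 HET replicates. Its genotypes did not overlap (-6.08, SE 3.55, unadjusted p = 0.0864, adjusted p = 0.921, edgeR). Ddit3 was the 1 gene of the 16 without overlap, near the shares of all genes tested (4.55% lower and 4.12% higher). Cebpd, an acute-phase C/EBP factor, was at -4.39 (SE 3.22), and Atf2, a Jun partner, at 2.52 (SE 1.90), both with overlapping genotypes.

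Of 32 kinases and factors upstream of AP-1, 29 were tested, 13 with positive and 16 with negative log2 fold changes (median -0.18). An unadjusted p under 0.05 was seen for 2 of the 29, and these were Map2k4 and Map2k7, which encode the kinases that activate the c-Jun N-terminal kinases. Map2k4 had 590, 3691 and 47 reads across WT replicates and 2604, 25349 and 1961 across Foxm1 HET replicates, and the highest WT library lay above the lowest Foxm1 HET library on the log2 CPM scale (4.38, SE 1.61, unadjusted p = 0.00657, adjusted p = 0.390, edgeR). Map2k7 had 952, 172 and 388 reads across WT replicates and 6272, 7348 and 279 across Foxm1 HET replicates, where replicate 3 was the low library (4.12, SE 1.86, unadjusted p = 0.0264, adjusted p = 0.713, edgeR). Rps6ka3, a kinase of the ERK route, was at -3.36 (SE 1.97) with overlapping genotypes. Genotypes did not overlap for 1 of the 29 genes in each direction, against 4.55% lower and 4.12% higher of all genes tested. These were Map3k1 (lower, -2.25, SE 1.90) and Map3k3 (higher, 3.48, SE 2.74), both named after their values were seen. Map3k1 overlapped with library-size scaling and Map3k3 in the normalized table.

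Of 25 genes described as AP-1 targets, 13 were tested, 6 with positive and 7 with negative log2 fold changes (median -0.37), none at an unadjusted p under 0.05 and none without overlap. The lowest p values belonged to Ptgs2 (cyclooxygenase 2, -3.21, SE 2.91), Plaur (the urokinase receptor, -3.17, SE 2.98), Odc1 (ornithine decarboxylase, -1.93, SE 1.91) and Vim (vimentin, 1.39, SE 1.48). The genes Csf2, Fasl, Il6, Mmp13, Mmp3 and Mt2 had no read in any library.

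The immediate-early companions are genes switched on by the same signals as Fos and Jun. Of 28 listed, 22 were tested, 11 in each direction (median -0.13), with 2 at an unadjusted p under 0.05. Nr4a2, an orphan nuclear receptor linked to HSC quiescence, had 19667, 19273 and 7117 reads across WT replicates and 444, 90 and 948 across Foxm1 HET replicates. The WT libraries averaged 9.44 ± 0.56 log2 CPM (SD, n = 3) and the Foxm1 HET libraries 3.96 ± 0.49 (SD, n = 3). With TMM scaling both groups were thus tight and far apart (-5.50, SE 1.85, unadjusted p = 0.00301, adjusted p = 0.260, edgeR). The tightness of the Foxm1 HET group rests in part on that scaling, whose factor was 0.453 in replicate 2 against 1.54 and 1.67 in replicates 1 and 3. With DESeq2, Nr4a2 was the 1 listed gene with an adjusted p under 0.05 (-5.22, SE 1.35, adjusted p = 0.00823). DESeq2 called 194 of all 8195 genes tested, so 1 call among the listed genes does not set the lists apart. Klf4, a Krüppel-like factor, had 5126, 10478 and 1536 reads across WT replicates and 731, 185 and 11 across Foxm1 HET replicates, also with no overlap (-4.04, SE 2.02, unadjusted p = 0.0458, adjusted p = 0.806, edgeR). Egr2, a zinc finger factor, was at -4.97 (SE 2.63) with 1 high WT library of 4963 reads, and Rhob, a small GTPase, at 2.27 (SE 1.59), both overlapping. Genotypes did not overlap for 5 of the 22 genes, 4 lower and 1 higher in Foxm1 HET, against 4.55% and 4.12% of all genes tested. The list was set with earlier results of these data known, and the paper reports Nr4a2 and Klf4 as downregulated. The count is therefore no test of the list. Beside Nr4a2 and Klf4, and named only after their values were seen, the lower ones were Nfkbia and Ppp1r15a and the higher one Ier3. Nr4a2 and Klf4 also did not overlap with RLE or library-size scaling or in the normalized table, whereas Ier3 and Ppp1r15a overlapped with RLE scaling and all 3 of Nfkbia, Ppp1r15a and Ier3 overlapped in the normalized table.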

How the data were processed

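LT-HSC RNA from 3 WT and 3 Foxm1 HET mice was sequenced as single reads of 50 bases. Library preparation is given as a Clontech kit in the study's methods and as a stranded total RNA kit in the labels. The submitters' processing notes name STAR 2.7.2b, limma and GRCm38. The counting program and its use of strand are not given in the sources used here. As deposited by the authors, the files hold raw counts of reads for each gene and a normalized table in log2 units, which ranks genes in each library as counts per length do and whose libraries share 1 maximum.

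Counts were tested with edgeR 4.0.16 (R 4.3.3) by the quasi-likelihood test after its default filter (minimum count 10) and TMM scaling, with Benjamini-Hochberg adjustment over 8195 genes. The SE was taken as the size of the log2 fold change over the root of F, and log2 CPM used a prior count of 2. TPM were computed from the deposited counts and lengths. Totals per library ran from 14573002 to 25798509 reads. Nothing states that libraries came from separate mice beyond 3 pairs of mice, so p-values measure the spread between these libraries.

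Alternatives were RLE or library-size scaling, no filter, at least 10 counts in every library, DESeq2 1.42.0, limma-voom 3.58.1, limma on the normalized table, the replicate number as a block and leaving out each library. The test scripts were tested on simulated data, where recovery was required only at a spread far below that of these libraries. This check does not give the power of the tests here.

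The members and lists were chosen with earlier results of these data known. The genes named were all members, the 4 tested genes of each list with the lowest p, Foxm1, and the 5 genes nearest to the members' mean pattern with a mean of at least 10 CPM. Map3k1, Map3k3, Nfkbia, Ppp1r15a and Ier3 were named outside this rule, after their values were seen. The list counts cover 1 gene met by this rule that is not reported here. Gene names were found for 94.1% of identifiers. Promoter sequences came from RefSeq (GRCm38.p6), and no amino acid sequences were used here.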

Additional observations from a re-analysis of the deposited data

How the results depend on the processing

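No AP-1 factor reached an adjusted p under 0.05 under any of the 14 alternatives, and Atf3, Fos and Fosl2 kept a negative sign in all of them. The sign of 5 members, none of them called, changed and the cause was not tested. Fosb became -0.23 with library-size scaling, -0.20 with at least 10 counts in every library and -0.52 with limma-voom. Jun became 0.59 with RLE scaling and with DESeq2 and 0.15 on the normalized table. Junb became -1.58 with limma-voom and -0.95 on the normalized table, Jund 0.24 with RLE scaling and with DESeq2, and Maff 0.048 with library-size scaling. With each library left out in turn, Fosb ranged from -0.94 to 0.83, Jun from -0.63 to 0.29, Junb from -1.88 to 1.93, Jund from -0.78 to 0.42, Maff from -2.40 to 1.23 and Atf3 from -4.53 to -3.11. Members without overlap ranged from 1 to 3 (Fos without WT replicate 1 or Foxm1 HET replicate 1, Jun and Junb without Foxm1 HET replicate 2). The matching share of all genes is not given for the fits with 1 library left out.

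Over all genes, 27 had an adjusted p under 0.05, against 10 with RLE scaling, 7 with library-size scaling, 36 with no filter, 0 with at least 10 counts in every library (2516 genes tested, 157 at an unadjusted p under 0.05), 194 with DESeq2, 4 with limma-voom, 0 on the normalized table (576 unadjusted) and from 0 to 29 with 1 library left out. Among immediate-early companions DESeq2 called 1 where edgeR called 0.

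Same-numbered libraries did not deviate together (correlations of 0.02, -0.03 and -0.07). The study's methods mention 3 pairs of mice. With so wide a spread between libraries, these correlations cannot decide whether the numbers follow those pairs. With the replicate number as a block, 0 genes were called (108 at an unadjusted p under 0.05), Atf3 was at -4.55, and Fosb (-0.14) and Junb (-0.52) changed sign.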
